A study of Mus musculus with 18 samples.

Results

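Kinesins are motor proteins that walk along, bundle or take apart microtubules, and the mouse genes that encode them carry symbols made of Kif and a number. All protein-coding genes whose symbol is Kif followed by a digit were taken, which gave 37 of the 27997 genes in the table of values. The annotation holds 39 such genes, and Kif12 and Kif2b are not analysed here. By best known role, 11 of the 37 were counted as mitotic, 11 as transport, 9 as ciliary and 6 as other. Among the last 6, Kif1bp encodes a protein that binds kinesins and is not itself a motor.

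RNA was measured in adherent neural stem cell (NSC) cultures from 3 mouse lines and in astrocytes made from each of them, with 3 libraries per group and 18 in all. The tdTomato line (genotype DNGR-1 +/- Tom+/-) and the EYFP line (DNGR-1 +/- EYFP+/-) came from spinal cord cells that had been marked by lineage tracing: in these animals Cre is made from the Clec9a locus, which encodes DNGR-1, and it switches on a fluorescent reporter for good in any cell with a history of Clec9a expression. The hippocampal line (DNGR-1+/+) was not traced in this way, and according to the study's methods it came from GlastCre mice with a floxed Huwe1 allele and an EYFP reporter. Whether that allele was recombined is not stated in the sources used here. Huwe1 itself stood at a log2 level of 13.28 ± 0.11 (SD, n = 3) in hippocampal NSCs and 13.32 ± 0.06 (n = 6) in traced NSCs. NSCs were kept in EGF and FGF and collected after 4 days. For astrocytes the growth factor medium was exchanged for BMP4 at 20 ng/ml, and cells were taken on day 6. The age of the donor animals is not in the labels. The replicates of a group are cultures of the same line at different passages, so p-values measure the spread between cultures and not between animals. In the comparison of fates over all lines, unlike changes of the lines also count as spread. Where both traced lines are set against the hippocampal line within a fate, differences between the traced lines count as spread too. In bulk RNA of this kind, fewer cells of a type and less RNA per cell cannot be told apart.

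The values are log2 expression levels as deposited, and the read depth behind them is unknown. Weakly expressed genes may be drawn towards their mean, and if so their changes are understated. The transform is not named, and this was not tested. The fates matched their labels: Gfap, the intermediate filament of astrocytes, went from 9.21 ± 0.15 in NSCs to 15.74 ± 0.63 in astrocytes (SD, n = 9 each). Nes, an NSC filament, fell to 10.97 ± 0.18 in traced astrocytes (n = 6) but stood at 13.64 ± 0.20 in hippocampal astrocytes (n = 3). The 5 proliferation markers examined all fell, and their summed level was 14.71 to 15.08 in NSC libraries and 11.38 to 11.64 in astrocyte libraries on the log2 scale. How much of any kinesin change this accounts for was not tested.

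During cell division, mitotic kinesins build the bipolar spindle, move chromosomes to the metaphase plate and finally bundle the microtubules of the midzone where the cell is cut apart. Many of their genes are switched on late in each cell cycle and are silent in resting cells. Transport kinesins carry vesicles, endosomes and mitochondria towards the plus ends of microtubules in every cell, and in cells with long processes they supply the periphery. Ciliary kinesins either haul cargo up the axoneme during intraflagellar transport or set the length and beat of cilia.

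Because the 11 mitotic genes moved together, their promoters were searched for 2 elements known from late cell cycle genes, the CHR element TTTGAA and the CCAAT box. The window ran from 250 bases before to 50 bases after the RefSeq transcription start (GRCm38.p6), and both strands were read. Entries were used for 29 of the 37 genes. None was used for Kif1bp, Kif5a, Kif5b, Kif13b, Kif19a, Kif20a, Kif21b or Kif28. TTTGAA was present in 9 of 10 mitotic kinesin promoters, all but that of Kif18a, against 16.0% of 21262 protein-coding promoters. It was in 1 of 9 transport promoters, 1 of 9 ciliary promoters and 1 of 5 others (some genes have 2 promoters). CCAAT was in 6 of 10 mitotic promoters and in 38.2% of all. The E2F element, searched as TTTCCCGC, TTTCGCGC, TTTGCCGC or TTTGGCGC, was in 2 of 10, those of Kif15 and Kif18a, and in 2.85% of all. A letter match describes the window and does not show that a factor binds there.

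The next 5 promoters are shown for TTTGAA and CCAAT, which stand in capitals on whichever strand they were found (TTCAAA and ATTGG are the same elements on the opposite strand). Kif11 and Kif22 are shown for a TTTGAA just upstream of the start with a CCAAT box before it, Kif23 for the same pair at the start itself, and Kif18a as the mitotic promoter with neither. Kif26b is shown because its promoter has both elements although the gene rose in astrocytes.
Kif11 (chr19:37376132-37376431, plus strand): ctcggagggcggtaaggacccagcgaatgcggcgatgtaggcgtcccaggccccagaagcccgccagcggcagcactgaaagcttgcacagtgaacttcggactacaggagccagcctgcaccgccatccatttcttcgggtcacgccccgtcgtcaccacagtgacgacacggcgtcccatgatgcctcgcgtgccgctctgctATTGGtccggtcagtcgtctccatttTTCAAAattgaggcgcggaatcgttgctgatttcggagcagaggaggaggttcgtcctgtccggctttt
Kif22 (chr7:127042371-127042670, minus strand): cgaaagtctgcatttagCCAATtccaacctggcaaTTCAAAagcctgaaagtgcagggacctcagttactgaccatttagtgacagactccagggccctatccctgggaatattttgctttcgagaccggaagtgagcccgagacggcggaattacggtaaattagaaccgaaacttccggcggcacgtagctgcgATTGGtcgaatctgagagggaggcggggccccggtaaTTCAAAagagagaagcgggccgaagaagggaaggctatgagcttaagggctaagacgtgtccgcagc
Kif23 (chr9:61946750-61947049, minus strand): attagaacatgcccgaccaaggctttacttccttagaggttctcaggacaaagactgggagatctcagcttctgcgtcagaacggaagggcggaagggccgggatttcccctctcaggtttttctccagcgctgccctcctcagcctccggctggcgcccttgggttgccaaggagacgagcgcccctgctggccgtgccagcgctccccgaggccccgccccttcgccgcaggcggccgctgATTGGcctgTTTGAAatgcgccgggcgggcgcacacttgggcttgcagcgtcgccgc
Kif18a (chr2:109280488-109280787, plus strand): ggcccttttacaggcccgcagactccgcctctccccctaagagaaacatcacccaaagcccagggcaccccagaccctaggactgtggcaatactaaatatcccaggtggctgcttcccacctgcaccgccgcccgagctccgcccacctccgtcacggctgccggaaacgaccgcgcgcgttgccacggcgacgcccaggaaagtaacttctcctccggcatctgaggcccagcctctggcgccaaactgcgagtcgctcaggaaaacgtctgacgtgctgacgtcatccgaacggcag
Kif26b (chr1:178528875-178529174, plus strand): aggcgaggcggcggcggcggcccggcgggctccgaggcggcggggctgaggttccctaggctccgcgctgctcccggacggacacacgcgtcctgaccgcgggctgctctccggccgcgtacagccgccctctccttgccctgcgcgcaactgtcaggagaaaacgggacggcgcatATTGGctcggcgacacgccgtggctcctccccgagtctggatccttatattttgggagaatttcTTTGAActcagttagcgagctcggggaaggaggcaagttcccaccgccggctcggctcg

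Counted from the start site, where the first transcribed base is 1, TTTGAA began at position -19 in Kif11, 3 in Kif23 and -9 in Kif26b. The CCAAT box of the same promoters began at -45, -7 and -73.

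The first question was how each kinesin gene differed between NSCs and the astrocytes made from them. Of the 36 genes that passed the filter on low values, 17 were higher and 18 lower in astrocytes at an adjusted p under 0.05 (limma with Benjamini-Hochberg adjustment over all genes), and 1, Kif19a, was not called. Such calls were common in this comparison: 81.9% of all genes tested were called, 42.1% as higher and 39.8% as lower. The split by role was uneven. All 11 mitotic kinesins fell, each by at least 1 on the log2 scale, a size of fall seen in 10.1% of all genes, and in none of them did the 9 NSC and the 9 astrocyte libraries overlap, which 23.2% of all genes showed in that direction. The median change was -4.21 for the mitotic class (from -5.49 to -2.09), against 0.02 for all genes tested. Transport kinesins, of which 10 of 11 were tested, had 7 higher and 3 lower with a median of 0.52, and the 9 ciliary kinesins had 7 higher, 1 lower and a median of 0.44. Among these calls, Kif6 and Kif27 reached the filter (a log2 level of 3.32 in 3 libraries) in astrocytes alone and Kif26a in NSCs alone, so these 3 entered the test through the fate in which they are high and their calls are a description only.

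**Figure D1:**
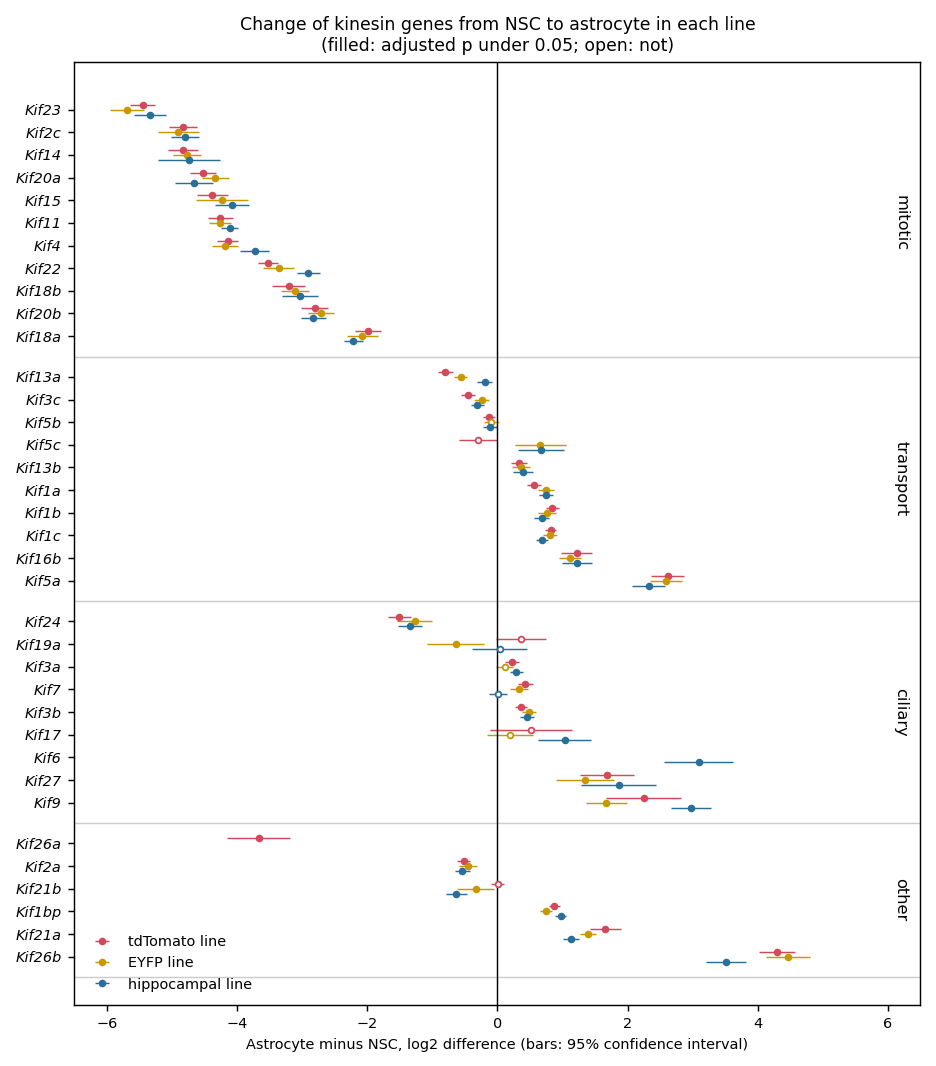
Log2 difference of astrocytes minus NSCs for each kinesin gene tested, one row per gene in 4 classes, with a point and its 95% confidence interval for each line (3 against 3 libraries). Filled points passed an adjusted p of 0.05, and a line without a point was under the filter. The points of all 11 mitotic genes lie at -1.99 or lower in every line, whereas the other classes lie on both sides of 0.

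Kif23, the motor subunit of the centralspindlin complex that bundles midzone microtubules for cytokinesis, changed most among the mitotic genes. Its log2 level was between 9.97 and 10.29 in the 9 NSC libraries (median 10.07) and between 4.31 and 4.90 in the 9 astrocyte libraries (median 4.66). The groups were far apart, with every astrocyte library below every NSC library. The change was -5.49 (standard error 0.07, adjusted p = 2.41e-20, limma), a 45.0-fold lower level in astrocytes. Its partner Racgap1 belongs to the spindle list below.

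Kif11, which slides antiparallel microtubules apart to make the spindle bipolar, lay between 11.69 and 12.17 in NSCs (median 11.95) and between 7.60 and 7.98 in astrocytes (median 7.74). It fell by 4.21 (standard error 0.05, adjusted p = 1.27e-20, limma), or 18.5-fold. Kif15, which can hold a spindle bipolar when Kif11 is inhibited, ranged from 9.72 to 10.11 in NSCs and from 5.20 to 5.99 in astrocytes. These ranges were also clear of each other, and the fall of 4.23 was close to that of Kif11.

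Among the motors that act on chromosomes and spindle length, Kif2c, a depolymerase that corrects wrong attachments at kinetochores, fell by 4.84 (standard error 0.07). Its levels were 10.06 to 10.35 in NSCs and 5.03 to 5.57 in astrocytes. The chromosome-bound motors Kif4 and Kif22 fell by 4.02 and 3.26. Kif18a and Kif18b, which dampen the growth of microtubule plus ends, fell by 2.09 and 3.12. Kif18a had the smallest fall of the class: its levels were 9.81 to 9.95 in NSCs and 7.62 to 8.05 in astrocytes, a 4.27-fold difference.

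The motors of the midzone and of abscission completed the class. Kif14, which recruits citron kinase, fell by 4.78, with NSC levels of 9.29 to 9.55 and astrocyte levels of 4.14 to 5.13. Kif20a, which carries the chromosomal passenger complex to the midzone, fell by 4.51. Its exons overlap those of Cdc23 on the opposite strand, and 23.3% of its 75-base stretches are shared with other transcripts, so its reads could be split if strand was not used in counting. Kif20b, which acts in late cytokinesis, fell by 2.78, from levels of 9.41 to 10.13 to levels of 6.73 to 7.35. Kif4 overlaps Pdzd11 in the same way as Kif20a overlaps Cdc23, with 13.8% of its stretches shared.

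**Figure D2:**
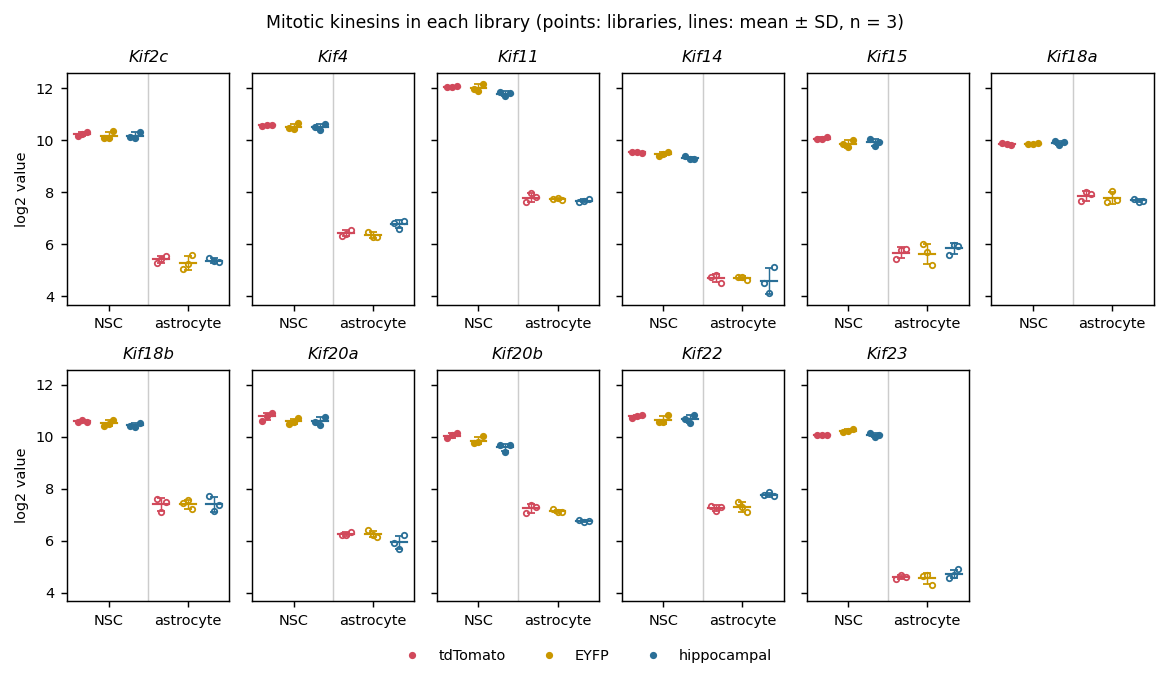
Log2 level of the 11 mitotic kinesins in each of the 18 libraries, with NSCs on the left (filled points) and astrocytes on the right (open points), coloured by line, and mean ± SD over n = 3. Every astrocyte point lies under every NSC point in all 11 panels, and the lowest astrocyte value is 4.14 for Kif14.

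The fall of the mitotic kinesins was seen in each line on its own. All 11 were called lower in the tdTomato line, the EYFP line and the hippocampal line, with medians of -4.26, -4.23 and -4.08. Over all 37 genes, 14 were higher and 17 lower in the tdTomato line, where 79.3% of all genes were called (39.9% higher, 39.5% lower). In the EYFP line 14 were higher and 17 lower, against 74.9% of all genes (37.5% higher, 37.4% lower), and in the hippocampal line 16 and 17, against 77.3% (39.2% higher, 38.2% lower). Kif23 changed by -5.45, -5.69 and -5.34 in the 3 lines, and Kif18a by -1.99, -2.08 and -2.21.

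Other genes of the division machinery, from a list of spindle and midzone partners, moved the same way: 22 of 24 were lower and 2 higher, with a median of -3.92, where 39.8% of all genes were lower and 42.1% higher. The largest falls were those of Hmmr at -5.59, Bub1 at -5.54 and Aurkb at -5.42. The 2 that rose were Ckap5, a microtubule polymerase with uses outside mitosis, at 0.31 and Numa1 at 0.17. Of 6 kinesin motors whose symbols do not start with Kif and a digit, the kinetochore motor Cenpe fell by 4.20, the minus-end motor Kifc1 by 3.29 and Kifc5b by 2.78, while Kifc2 rose by 1.39 and Kifc3 by 0.23. Kifc1 and Kifc5b are close copies, so their values are uncertain. The sixth, Stard9, was also lower.

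To compare levels between genes, each linear value was divided by transcript length, and this level per kilobase is given on the log2 scale. In NSCs the highest were Kif5b at 10.35 ± 0.04, Kif1a at 10.06 ± 0.06 and Kif1b at 9.96 ± 0.12 (SD, n = 9), followed by the mitotic Kif11 at 9.68 ± 0.15 and Kif22 at 9.62 ± 0.12. Kif11 and Kif22 did not differ beyond their spread. In astrocytes Kif1a at 10.74 ± 0.08 and Kif1b at 10.73 ± 0.03 led, also without a difference beyond their spread, and the highest mitotic gene was Kif22 at 6.35 ± 0.28, in place 15 of 37. The mitotic class made up 33.8% to 37.03% of the summed level per kilobase of the 37 genes in the NSC groups and 3.13% to 3.31% in the astrocyte groups. The share of transport kinesins was 39.2% to 41.6% in NSC groups and 61.2% to 62.0% in astrocyte groups, and that of ciliary kinesins 8.19% to 8.85% and 11.5% to 12.3%. A share rises when another class falls, so these figures describe the makeup of the family only.

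**Figure D3:**
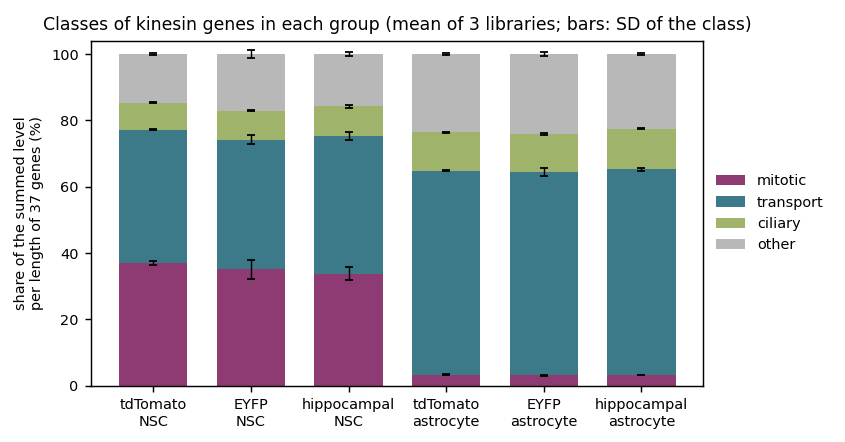
Share of each class, in percent, in the summed linear level per transcript length of the 37 kinesin genes, for the 6 groups (means of 3 libraries; error bars are the SD of the class they top). The mitotic block shrinks from 33.8% to 37.03% in NSC groups to 3.13% to 3.31% in astrocyte groups.

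The heavy chains of conventional kinesin are encoded by Kif5a, Kif5b and Kif5c, and they differed from each other. Kif5a, best known from neurons, lay between 5.90 and 6.25 in NSCs and between 8.31 and 8.79 in astrocytes (median 8.59). No library of one fate reached the range of the other, and the rise of 2.51 (standard error 0.07, adjusted p = 1.33e-15, limma) was the largest among the transport genes. Kif5b, the ubiquitous form, stayed between 12.74 and 13.01 in all 18 libraries. Its difference of -0.11 (standard error 0.03, adjusted p = 0.00117, limma) was within the range of both fates, and in the hippocampal line alone the call was lost (largest adjusted p = 0.163) without any one of hippocampal NSC replicates 1, 2 or 3 or hippocampal astrocyte replicates 2 or 3. In the tdTomato line alone it was lost without tdTomato NSC replicate 3 (up to 0.315 over its alternatives), and in the EYFP line alone it was not called (-0.09, adjusted p = 0.139).

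Neuron markers were examined beside Kif5a. Of 10 listed, 7 were tested, of which 3 were higher and 3 lower in astrocytes, beside 42.1% higher and 39.8% lower among all genes. The summed level of the list was 14.47 to 14.64 in NSC libraries and 13.91 to 14.35 in astrocyte libraries. Nearly all of that sum was Map2, with means of 14.49 in NSCs and 14.15 in astrocytes. The sum therefore says little about the other genes of the list. Stmn2 and Nefl, which mark neurons, were near the bottom of the scale in astrocytes, at -1.20 ± 0.47 and 0.19 ± 0.37 (SD, n = 9). Rbfox3 rose by 1.73, Dcx by 1.47 and Tubb3 by 0.85, while Elavl4 fell by 2.52, Elavl3 by 0.60 and Map2 by 0.35. Their part in the rise of Kif5a was not tested.

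Kif5c depended on the line. In NSCs it was 6.96, 7.04 and 7.19 in the tdTomato line, 5.73, 5.63 and 5.33 in the EYFP line and 5.60, 5.22 and 5.55 in the hippocampal line. In astrocytes it was 6.70, 6.999 and 6.59, then 6.41, 6.34 and 5.92, then 5.96, 6.29 and 6.13. Thus the tdTomato NSCs stood above every other group's libraries except that line's own astrocytes, whose highest value reached into their range. The change was 0.66 in the EYFP line (adjusted p = 0.0065) and 0.67 in the hippocampal line (adjusted p = 0.00299), but -0.30 in the tdTomato line (adjusted p = 0.053, limma). Over all lines the difference of 0.34 (adjusted p = 0.0354, limma) was lost in 11 of 28 alternatives, with an adjusted p of up to 0.271. Leaving out any one of 9 libraries was enough: EYFP NSC replicates 2 and 3, all 3 hippocampal NSC replicates, EYFP astrocyte replicates 1 and 2 or hippocampal astrocyte replicates 2 and 3.

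The motors of the Kif1 group, which carry synaptic vesicle precursors, mitochondria and dense core vesicles, rose by similar amounts. Kif1a was between 12.97 and 13.16 in NSCs and between 13.64 and 13.89 in astrocytes, a rise of 0.68 (standard error 0.04). Kif1b rose by 0.76 and Kif1c by 0.77, and the fates did not overlap for any of the 3, as in 22.9% of all genes in that direction. Kif1bp, the binding partner of these motors, rose by 0.86 (standard error 0.03), from levels of 10.66 to 10.84 to levels of 11.50 to 11.74, also without overlap.

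Of the endosome motors, Kif16b, which moves early endosomes, rose 2.27-fold (adjusted p = 3.66e-13, limma). Its NSC levels were 6.40 to 7.53 and its astrocyte levels 7.69 to 8.65. Kif13b rose by 0.36, whereas Kif13a, which serves recycling endosomes and melanosomes, fell by 0.52. Kif3c fell by 0.33, with overlapping ranges, and 38.9% of its stretches are shared with antisense transcripts. Kif28 stood between -0.26 and 0.89 in all libraries, under the filter, and was not tested.

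**Figure D4:**
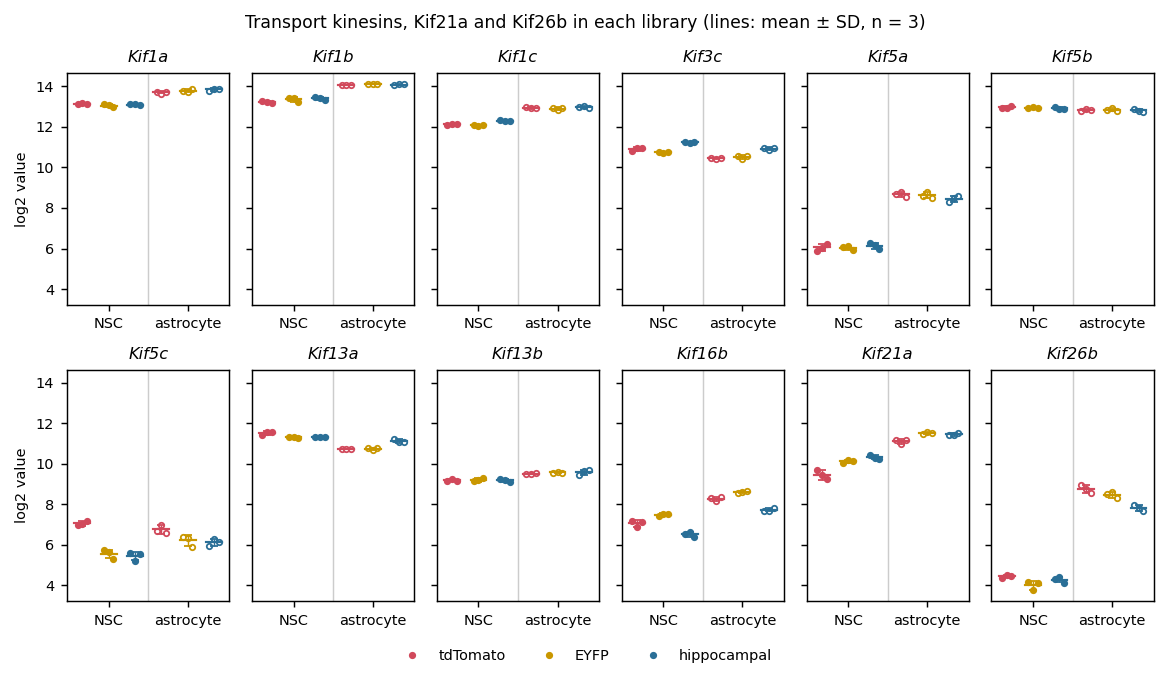
Log2 level of 10 transport kinesins and of Kif21a and Kif26b in each library, with NSCs on the left (filled points) and astrocytes on the right (open points), coloured by line, and mean ± SD over n = 3. Kif5a and Kif26b separate most widely by fate. The fates do not overlap for Kif1a, Kif1b, Kif1c, Kif13a, Kif13b, Kif16b and Kif21a either. Kif5b is level, and Kif5c is highest in tdTomato NSCs at 6.96 to 7.19, a range that 1 tdTomato astrocyte library at 6.999 reaches into.

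Light chains and cargo adaptors of kinesins, 19 of 20 listed genes, had 13 higher, 2 lower and 4 not called, with a median of 0.25. Of all genes tested, 42.1% were higher and 39.8% lower, with a median of 0.02. The scaffold Mapk8ip2 rose by 2.03, the light chain Klc3 by 0.97 and Fez1 by 0.58, while the mitochondrial adaptor Rhot1 fell by 0.40 and Hap1 was 2.46-fold lower. Klc3 passed the filter in the hippocampal line alone of the 3 single lines, where it rose by 2.26. Of 23 subunits and regulators of dynein, the motor that walks the other way, 16 were higher and 5 lower, with a median of 0.16. Dync1i1 rose by 1.77, Dync2li1 by 0.85 and Dynll2 by 0.50, and Nde1 fell by 0.73, Dync1li1 by 0.23 and Dynll1 by 0.22.

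The kinesins counted as other included the largest rise in the family. Kif26b, an atypical member known from kidney development and cell adhesion, was between 3.76 and 4.51 in NSCs (median 4.34) and between 7.65 and 8.95 in astrocytes. All 9 astrocyte libraries stood above all 9 NSC libraries, and the rise of 4.09 (standard error 0.13, adjusted p = 3.32e-15, limma) was 17.03-fold. A rise of at least 1 was called in 14.6% of all genes. Its relative Kif26a went the other way, with a difference of -2.16, but its levels were low: 5.39, 5.24 and 4.96 in tdTomato NSCs, at most 3.63 in the other NSCs and at most 2.83 in astrocytes. Only the tdTomato NSCs were clear of the other groups, and the EYFP and hippocampal lines did not pass the filter for Kif26a on their own.

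Kif21a and Kif21b, which pause microtubule growth, also parted. Kif21a rose by 1.39 (standard error 0.07, adjusted p = 5.21e-12, limma), from 9.23 to 10.43 in NSCs to 10.98 to 11.55 in astrocytes. Kif21b had a difference of -0.32 (adjusted p = 0.00263) with overlapping ranges, and by line it was 0.00 in the tdTomato line, -0.34 in the EYFP line and -0.63 in the hippocampal line. The call in the EYFP line (adjusted p = 0.034) was lost without EYFP NSC replicate 1 or 2 or EYFP astrocyte replicate 2 or 3 (up to 0.134 over its alternatives). Kif2a, a depolymerase that trims processes and also acts at spindle poles, fell by 0.50, from 10.87 to 11.02 in NSCs to 10.32 to 10.60 in astrocytes. Its fall was far smaller than that of Kif2c, and 17.6% of its stretches are shared with other transcripts, among them Dimt1.

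Ciliary kinesins were read by their place in the cilium. The anterograde motor of intraflagellar transport is built from Kif3a and Kif3b, which were strongly expressed in both fates. Kif3a was 10.58 to 10.87 in NSCs and 10.79 to 11.10 in astrocytes, and Kif3b was 10.39 to 10.57 and 10.83 to 11.08. The rises were 0.21 (standard error 0.03) and 0.44 (standard error 0.03), and the ranges overlapped for Kif3a and not for Kif3b. Kif17, a further motor that reaches the ciliary tip, had a difference of 0.58 (adjusted p = 0.00203, but 0.0697 after quantile normalization), and among the single lines it was called in the hippocampal line at 1.04 but not in the tdTomato line (0.52, adjusted p = 0.112) or the EYFP line (0.19, adjusted p = 0.291).

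Kif24, a depolymerase of the mother centriole that holds back cilium assembly, was the ciliary gene that fell. It was between 8.10 and 8.60 in NSCs (median 8.47) and between 6.85 and 7.26 in astrocytes (median 6.98). The fates did not overlap, and the change was -1.37 (standard error 0.06, adjusted p = 2.82e-13, limma), with -1.51, -1.27 and -1.34 in the tdTomato, EYFP and hippocampal lines. Kif7, the kinesin of the Hedgehog pathway at the ciliary tip, had a difference of 0.25, and 14.4% of its stretches are shared with an antisense transcript.

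Kif9, a motor of the central apparatus of motile cilia, rose in all 3 lines. In NSCs it was 4.37, 4.16 and 3.38 in the tdTomato line, 4.67, 4.56 and 4.77 in the EYFP line and 4.51, 4.76 and 4.83 in the hippocampal line. In astrocytes it was 6.44, 6.01 and 6.21, then 6.49, 6.32 and 6.22, then 7.62, 7.61 and 7.80. Every astrocyte library lay above every NSC library, and hippocampal astrocytes lay above those of both traced lines. The change over all lines was 2.30 (standard error 0.17, adjusted p = 7.15e-10, limma). Of 10 markers of motile ciliated ependymal cells, 8 were tested between the fates, of which 6 were higher and 2 lower in astrocytes. Among all genes 42.1% were higher and 39.8% lower. Dnah5 and Ccdc153, both among the 6, averaged 1.66 and 2.32 in NSCs, under the filter. They entered the test mainly through astrocytes, so their calls are a description only. Foxj1, the master regulator of motile cilia, rose by 1.45 and Rsph1 by 2.22, while Cfap43 fell by 2.30 and Hydin by 2.18. The summed level of the list was 10.98 to 11.56 in NSC libraries and 11.30 to 12.49 in astrocyte libraries. Foxj1 and Cfap43 made up most of that sum in NSCs, and Foxj1 did so in astrocytes. The part of such cells in the rise of Kif9 was not tested.

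Kif6, which is also tied to motile cilia, was high in hippocampal astrocytes alone, at 5.60, 5.59 and 5.96. It was 2.64, 2.06 and 2.30 in tdTomato astrocytes and 3.13, 2.61 and 3.26 in EYFP astrocytes, and at most 3.06 in any NSC library. The difference in the hippocampal line was 3.09. These 3 hippocampal astrocyte libraries are the only ones in which Kif6 reached the filter, so under the filter it could enter a test only through them. Kif27, required for motile cilia, was 2.54 to 3.23 in NSCs and 3.79 to 5.20 in astrocytes, a difference of 1.63. Kif19a, which limits ciliary length, was not called over all lines at -0.08 (adjusted p = 0.614; interval from -0.39 to 0.23), but its lines went different ways. It was called lower in EYFP astrocytes at -0.64 (adjusted p = 0.0135, limma; 0.0553 without EYFP NSC replicate 2), while the difference was 0.36 in the tdTomato line (adjusted p = 0.0772) and 0.04 in the hippocampal line (adjusted p = 0.869).

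**Figure D5:**
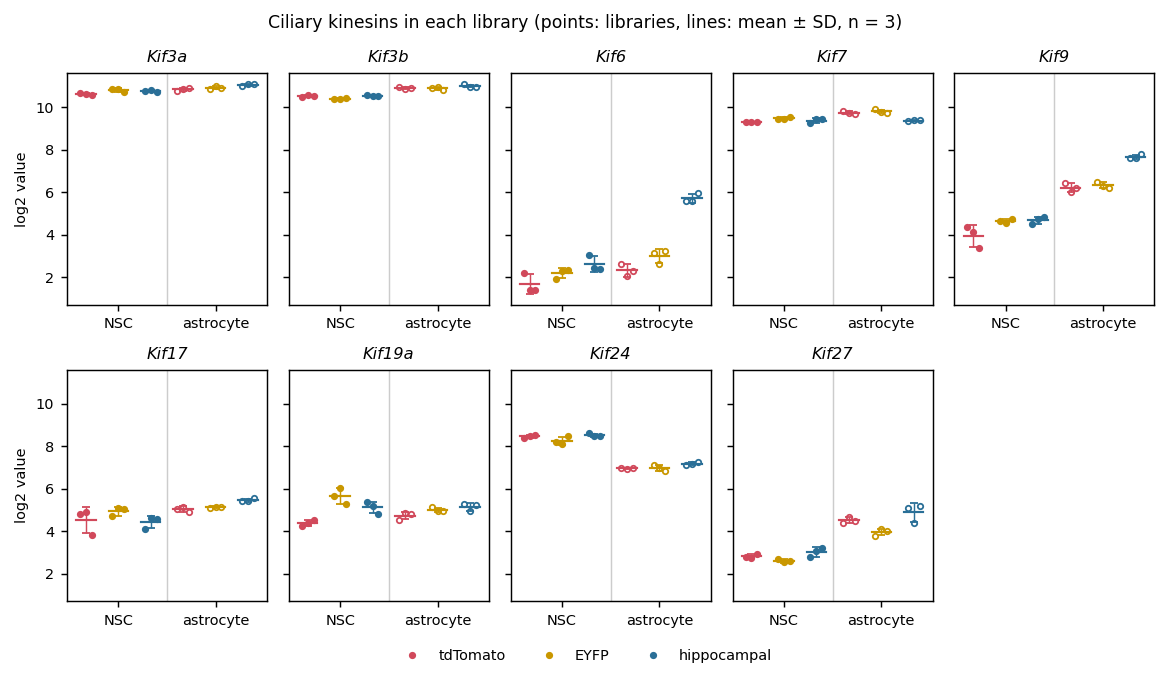
Log2 level of the 9 ciliary kinesins in each library, with NSCs on the left (filled points) and astrocytes on the right (open points), coloured by line, and mean ± SD over n = 3. Hippocampal astrocytes stand above the other groups for Kif6 (5.59 to 5.96) and Kif9 (7.61 to 7.80), and Kif24 is lower in astrocytes of every line.

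The promoters of ciliary kinesins were searched for GTTGCC, the core letters of the X-box read by RFX factors. It was in 5 of 9 ciliary promoters, which belong to 4 of 8 genes (Kif3a, Kif9, Kif17 and Kif24), in 3 of 9 transport promoters, in 2 of 10 mitotic promoters and in 12.6% of all. The promoter of Kif9 is printed because this gene rose in all 3 lines and its 2 annotated starts share the site, here in capitals.
Kif9 (chr9:110476708-110477007, plus strand): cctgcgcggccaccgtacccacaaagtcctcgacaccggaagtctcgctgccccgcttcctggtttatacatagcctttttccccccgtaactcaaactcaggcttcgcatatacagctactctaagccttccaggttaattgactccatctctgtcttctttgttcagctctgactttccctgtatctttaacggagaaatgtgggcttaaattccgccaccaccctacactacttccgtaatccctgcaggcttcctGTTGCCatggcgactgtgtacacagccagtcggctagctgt

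Of 22 listed intraflagellar transport genes, 14 were higher, 5 lower and 3 not called in astrocytes, with a median of 0.24, beside 42.1% higher and 39.8% lower among all genes. Ttc30b rose by 1.24, Ift22 by 1.08 and Wdr19 by 0.99, and Ift140 fell by 0.48, Ttc26 by 0.31 and Ttc21b by 0.30.

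The next question was whether the change from NSC to astrocyte differed between the traced lines and the hippocampal line. The hippocampal cells are a single line with its own genotype. In all comparisons with it, origin, genotype and line therefore cannot be told apart. The difference of the 2 changes was called for 13 of 36 kinesins, 5 with a higher and 8 with a lower change in the traced lines, against 46.2% of all genes (20.3% higher, 25.9% lower). The mitotic class had 2 of 11, Kif22 at -0.54 (adjusted p = 0.00102) and Kif4 at -0.43 (adjusted p = 0.00397, limma). Both fell more in the traced lines. The change of Kif22 was -3.53 in the tdTomato line, -3.36 in the EYFP line and -2.90 in the hippocampal line. For Kif11, Kif23 and the others of the class the difference was not called, with values from -0.23 to 0.24.

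In the ciliary class Kif9 had -1.01 (standard error 0.24, adjusted p = 0.00219, limma), so it rose less in the traced lines. Kif6 had -2.37, a value that rests on hippocampal astrocytes as the only group above the filter. Kif7 had 0.38 (adjusted p = 0.000221): it rose by 0.43 and 0.33 in the traced lines and by 0.00 in the hippocampal line. Outside the class, Kif26a had -1.72 and passed the filter through NSCs alone, mainly those of the tdTomato line. Kif5c had -0.49 (adjusted p = 0.0465), but by line the change was 0.66 in the EYFP line, 0.67 in the hippocampal line and -0.30 in the tdTomato line. Kif26b rose more in the traced lines by 0.87 (adjusted p = 0.000364) and Kif13a fell more in them by 0.49 (adjusted p = 3.08e-06).

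Astrocytes of the traced lines and of the hippocampal line were then compared directly, traced minus hippocampal, 6 libraries against 3. Here 15 of 35 kinesins were called, 5 higher and 10 lower, against 52.0% of all genes (24.1% higher, 27.9% lower). Among the ciliary kinesins, Kif9 was lower in traced astrocytes by 1.39, Kif27 by 0.66, Kif17 by 0.38 and Kif3a by 0.17, and Kif7 was higher by 0.40. Kif6 is also among the 10 lower, with a difference of -3.05, but no traced astrocyte library reached the filter for it. The call of Kif27 (adjusted p = 0.0446) did not hold in 10 of 17 alternatives (up to 0.18), among them leaving out tdTomato replicate 1, any of the 3 EYFP replicates, or hippocampal replicate 1 or 3. That of Kif17 (adjusted p = 0.0179) was lost without hippocampal replicate 3 (up to 0.107 over its alternatives).

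Cilium genes outside the kinesin family moved with these. Of the 22 intraflagellar transport genes, 17 were lower in traced astrocytes and the other 5 were not called, with a median of -0.32, where 27.9% of all genes were lower. Their change differed between the traced lines and the hippocampal line in 14, each of them lower in the traced lines, as in 25.9% of all genes. Of the ependymal markers above, 8 were tested and 6 were lower, beside the same 27.9% of all genes. Ccdc153, which is among the 6, averaged 2.81 in traced astrocytes, under the filter, and 5.86 in hippocampal ones. It entered the test mainly through the hippocampal astrocytes, so its call is a description only. The summed level of the list, mostly that of Foxj1, was 11.30 to 11.59 in traced and 12.35 to 12.49 in hippocampal astrocytes. Foxj1 stood at 11.15 ± 0.12 (n = 6) and 12.20 ± 0.08 (n = 3), and Dnah11 and Dnah12 did not pass the filter. The part of such cells in the kinesin values was not tested.

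The remaining differences between astrocytes were Kif16b at 0.71, Kif26b at 0.81, Kif21b at 0.58 and Kif20b at 0.43, all higher in traced cells, and Kif22 at -0.50, Kif3c at -0.44, Kif13a at -0.39, Kif4 at -0.39 and Kif1bp at -0.16. Kif4 was no longer called without hippocampal replicate 3 (adjusted p = 0.0557).

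In NSCs, 6 of 34 kinesins differed between traced and hippocampal lines, 4 higher and 2 lower, near the 19.4% of all genes (10.6% higher, 8.81% lower). Kif16b was higher by 0.77 (adjusted p = 0.00532), with 6.88 to 7.53 in traced and 6.40 to 6.62 in hippocampal libraries. Kif3c was lower by 0.40 and Kif1c by 0.20. The mitotic Kif20b, Kif11 and Kif14 were higher in traced NSCs by 0.36, 0.24 and 0.18, but none was called without hippocampal replicate 2 or without hippocampal replicate 3, with adjusted p up to 0.127 for Kif20b, 0.106 for Kif11 and 0.373 for Kif14 over their alternatives. Kif20b was also lost without hippocampal replicate 1, and Kif14 without tdTomato replicate 1 or 2 or EYFP replicate 3. Without hippocampal replicate 2 or without hippocampal replicate 3, the number called was 3. Of the 7 ciliary kinesins tested, 0 were called with limma and 0 had an unadjusted p under 0.05.

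The 2 traced lines differed from each other mainly as NSCs, where 13 of 34 kinesins were called, against 33.2% of all genes. Kif26a stood 1.83 above the EYFP line in the tdTomato line, with 1 EYFP library over the filter besides the 3 of the tdTomato line, and Kif5c was 2.84-fold higher (adjusted p = 0.000157, limma). Kif19a was lower by 1.27 (adjusted p = 0.0024), with 4.24, 4.38 and 4.53 in the tdTomato line and 5.64, 6.02 and 5.29 in the EYFP line. Kif21a was lower by 0.67 and Kif16b by 0.43, and of the mitotic class Kif23 was called, lower by 0.18, though not without tdTomato replicate 2 (up to 0.196 over its alternatives). The number called went from 6 without tdTomato replicate 2 to 20 without EYFP replicate 3, and it was 7 without tdTomato replicate 3 and 8 without EYFP replicate 1 or without EYFP replicate 2.

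In astrocytes of the traced lines 2 of 34 kinesins were called, both lower in the tdTomato line, against 11.2% of all genes (5.60% higher, 5.63% lower). Kif21a was lower in the tdTomato line by 0.40 (adjusted p = 0.00387) and Kif16b by 0.33 (adjusted p = 0.0216, limma). Kif16b was lost without tdTomato replicate 2 or without EYFP replicate 2 or 3, with an adjusted p of up to 0.0909. Between the changes of the traced lines, 5 of 36 kinesins differed, 1 higher and 4 lower, against 13.3% of all genes (6.36% higher, 6.98% lower). These were Kif19a at 1.00, Kif26a at -1.88, Kif5c at -0.96, Kif13a at -0.24 and Kif3c at -0.21. Kif19a was lost without EYFP NSC replicate 2 (adjusted p = 0.0556). The number called was 3 when any one of 8 libraries was left out: tdTomato NSC replicate 2 or 3, EYFP NSC replicate 1 or 2, tdTomato astrocyte replicate 2 or 3, or EYFP astrocyte replicate 1 or 3. Of the 11 mitotic kinesins, 0 were called with limma and 0 had an unadjusted p under 0.05.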

How the data were processed

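RNA-seq libraries of 3 lines, each as NSC and as astrocyte in 3 replicates, were grouped by their labels. The authors trimmed the reads, aligned them with STAR to GRCm38, estimated gene counts with RSEM and normalized these with DESeq2 (submitters' notes: Trimmomatic 0.36, STAR 2.5.2, RSEM 1.3.0, DESeq2 1.18.1). The deposited table holds log2 values from -2.15 to 18.86 for 27997 genes, of which 29.4% of values are negative. The transform is not named, counts cannot be recovered, and depth is therefore unknown. Use of strand in counting is not given in the sources used here. Labels and methods name different library kits and RSEM versions, and read lengths that differ by a single base.

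Symbols, classes, promoters and coordinates came from GENCODE M21 and RefSeq tables. The members, classes and gene lists were chosen with earlier results of these data known, and from each partner list the 3 largest rises and 3 largest falls called over all libraries were named. Shared sequence is the share of a gene's 75-base stretches (the shorter stated read length) also found, on either strand, in transcripts of other genes.

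Values were tested as deposited, without a pseudocount, with limma 3.58.1 (R 4.3.3, trend in the variance, Benjamini-Hochberg, threshold 0.05), fitted on all genes that reached 3.32 (a linear value of 10) in 3 or more libraries of the comparison. The comparison of fates had the line as covariate, and the differences of change were contrasts of 6 group means. In simulated data with 200 changed genes per comparison, 67 of these had a log2 change of 1. Of the 67, 95.5% to 100% were recovered over the 10 comparisons, with 6 to 16 false calls each. Recovery at low levels, such as those of Kif6, Kif9 or Kif26a, was not tested separately. The effect of differences between lines on recovery was not tested either. Median absolute log2 differences between replicates were 0.0746 to 0.126, and no libraries were duplicates. Alternatives changed the pseudocount, filter, scaling (median centring, quantiles), variance trend and design, added the replicate as block or dropped single libraries.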

Additional observations from a re-analysis of the deposited data

Results flagged for a closer look

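The change from NSC to astrocyte differed between lines for 18 results. For 15 of them this rests on a test of the difference itself (limma, Benjamini-Hochberg), and the other 3, for Kif6 and Kif26a, are given as descriptions. Between the traced lines and the hippocampal line, the change was lower in the traced lines by -2.37 for Kif6, -1.72 for Kif26a, -1.01 for Kif9 (adjusted p = 0.00219), -0.54 for Kif22 (0.00102), -0.49 for Kif5c (0.0465), -0.49 for Kif13a (3.08e-06), -0.43 for Kif4 (0.00397) and -0.16 for Kif1bp (0.00308). It was higher in them by 0.13 for Kif1c (0.0282), 0.38 for Kif7 (0.000221), 0.39 for Kif21a (0.00604), 0.46 for Kif21b (0.00647) and 0.87 for Kif26b (0.000364). Kif6 reached the filter in hippocampal astrocytes alone and Kif26a in NSCs alone, so both entered the test through the groups in which they are high. Without a filter their adjusted p was 5.26e-05 and 0.0025. The lower change of Kif5c came from 1 of the 2 traced lines: by line it was -0.30 in the tdTomato line, 0.66 in the EYFP line and 0.67 in the hippocampal line. The call of Kif5c was lost in 14 of 26 alternatives, 11 of which left out a single library, with an adjusted p of up to 0.241. That of Kif1c was lost without hippocampal NSC replicate 1 or hippocampal astrocyte replicate 3 (up to 0.0865), and that of Kif1bp after median centring (0.0666).

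Between the tdTomato and the EYFP line, the change was lower in the tdTomato line by -1.88 for Kif26a, which passed the filter in NSCs alone, -0.96 for Kif5c (adjusted p = 0.00905), -0.24 for Kif13a (0.0299) and -0.21 for Kif3c (0.0437), and higher by 1.00 for Kif19a (0.0177). Kif26a and Kif5c were highest in tdTomato NSCs, where their mean log2 levels were 5.20 and 7.07, against 3.37 and 5.56 in EYFP NSCs. The calls of Kif13a and Kif3c were lost in 9 and 16 of 26 alternatives, with adjusted p of up to 0.0902 and 0.119. No group held 4 or more libraries, so no single library was tested as standing apart.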

How the results depend on the processing

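The number of kinesins called stayed within 1.5 times in 168 of 191 counts recomputed under the alternatives, and of 3427 single differences called as reported, 3285 remained called and 142 lost the call, while 67 of 3184 not called gained one. A called sign change was seen in 0. All 11 mitotic falls were called under every alternative run, over all lines and in each line. For the difference of change between the tdTomato and EYFP lines, 3 kinesins rather than 5 were called without a filter, with a minimum of 100 on the linear scale and with limma without a trend, and 3 to 6 when a library was left out. For traced against hippocampal NSCs the range was 3 to 6 when a library was left out, and for tdTomato against EYFP NSCs 6 to 20. Between tdTomato and EYFP astrocytes, 1 rather than 2 was called without a filter, 1 to 2 when a library was left out, and 4 with the replicate block. Replicates came from successive passages by the study's methods, but nothing ties a number to a passage. Within a fate across lines, deviations of same-numbered libraries had a mean correlation of 0.106 (18 pairs, 0.0117 to 0.313), against -0.0532 (36 pairs, -0.345 to 0.12) for other numbers, and 13 of 18 libraries correlated best with their own number in both other lines, a hint from the data and not the design. Within a line across fates the mean was -0.0235 (9 pairs). Of 36 best matches across lines within a fate, 31 had the same number. Since no label ties a number to a passage and not every pair passed 0.1, the main fits left the replicate number out. They may therefore ignore a pairing within a fate. With the block, the count over all genes between tdTomato and EYFP astrocytes went from 1641 to 3049, and no other count of kinesins moved by over 1.5 times. The sum of reads behind a value is unknown, so differences of Kif6, Kif26a, Kif27 and Kif28, at the bottom of the scale, cannot be given a counting error.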
